A study of Mus musculus with 6 samples.

Results

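Antibody genes were followed in ribosome-associated RNA taken from the medial prefrontal cortex (mPFC) of mice by RiboTag immunoprecipitation, a method that pulls down ribosomes carrying a hemagglutinin-tagged Rpl22 subunit together with their RNA. The 8 genes described here were selected by name from the 47729 genes of the deposited table: the kappa light chain constant region Igkc, the heavy chain constant regions Ighg1, Ighg2b, Ighg2c, Ighg3, Igha and Ighm, and the joining chain Jchain. The choice was made with the differences between the groups in these same libraries in view, so every difference of these 8 genes between the groups is a description and carries no test. All 6 libraries came from adult male C57BL/6 mice that carried D2Cre (Cre from a dopamine D2 receptor bacterial artificial chromosome), the Cre-dependent LSL-Flag-Cas9 allele and the RiboTag allele, and 3 weeks before collection 3 of them (Ctrl) had received AAV GFP and 3 (Gsk3sKO in mPFC D2) AAV Gsk3 sgRNA/GFP into the mPFC. Cas9 and the ribosome tag depended on Cre and were directed to D2-expressing cells. Ctrl therefore shared Cas9, GFP and the tagged ribosome with Gsk3sKO but received no guide RNA against Gsk3b. No source read here ties each library to its own mouse, so the p-values rest on a library-to-library spread that could be purely technical.

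An antibody is built from heavy and light chains, each with a variable region that binds antigen and a constant region that sets the class. The variable exon is joined from separate genomic segments in each B cell, and the constant exons are spliced to it, so that 1 mRNA carries both. Plasma cells, the antibody-secreting descendants of B cells, make these mRNAs in very large amounts and translate them on the endoplasmic reticulum, and a small number of such cells is known to reside in the meninges.

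The libraries held neuronal RNA in large amounts. Values are in FPKM, fragments scaled for transcript length and library depth. The presynaptic genes Snap25 and Syt1 lay between 991 and 1130 FPKM and between 448 and 575 FPKM, the kinase Camk2a between 482 and 656 FPKM and the excitatory neuron transporter Slc17a7 between 192 and 273 FPKM, while Drd2 itself lay between 1.58 FPKM in Ctrl replicate 1 and 14.1 FPKM in Ctrl replicate 3. In limma 0 of the 8 neuron genes tested were called at an unadjusted p under 0.05. The targeted gene, Gsk3b, had a gene total of 35.6, 53.8 and 56.5 FPKM in Ctrl and 36.9, 37.0 and 33.6 FPKM in Gsk3sKO. Its main transcript, ENSMUST00000023507, was listed at 33.5, 34.7 and 36.2 FPKM in the Ctrl libraries and at 24.8, 21.6 and 21.2 FPKM in Gsk3sKO, with no overlap. The next, ENSMUST00000114750, overlapped, at 1.85, 18.7 and 20 FPKM in Ctrl and 11.9, 15.4 and 12.5 FPKM in Gsk3sKO. These are RNA values and do not measure the protein. By staining, in mice without the RiboTag allele, the paper reported GSK3β protein missing from most neurons that held both Cas9 and the guide RNA virus. The file holds no read counts. From the spacing of its low values, the depth was put at roughly 23500000 to 45200000 fragments in Ctrl and 28800000 to 41300000 in Gsk3sKO. Fragment numbers given below rest on these estimates and are approximate.

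The 8 members together summed to 85.2, 134 and 185 FPKM in the Ctrl libraries and to 24.2, 21.9 and 22.5 FPKM in the Gsk3sKO libraries. They made up between 0.014% and 0.0446% of all FPKM in Ctrl and between 0.0055% and 0.00582% in Gsk3sKO. The groups did not overlap, with Gsk3sKO the lower, for 6 of the 8 members (Igkc, Ighg2b, Ighg2c, Igha, Ighm and Jchain), and the groups overlapped for Ighg3 and Ighg1. Among all 12874 gene totals with a mean of at least 1 FPKM, 8.30% separated the groups in that way. Of the members 7 passed that filter and Ighg1 did not. All 7 were among the gene totals lower in Gsk3sKO at an unadjusted p under 0.05 in limma, a call that 5.20% of all tested gene totals received (1.36% were called higher), and nothing is read from this count because the genes were chosen on the same contrast. The median difference of the 8 members was -2.28 on the log2(FPKM + 1) scale, Gsk3sKO minus Ctrl, against -0.06 for all tested gene totals. In RNA pooled over many cells such as this, fewer cells of a type and less RNA per cell cannot be told apart. All libraries are immunoprecipitates with no input library beside them, and how much of the antibody RNA came with tagged ribosomes was not tested.

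**Figure D1:**
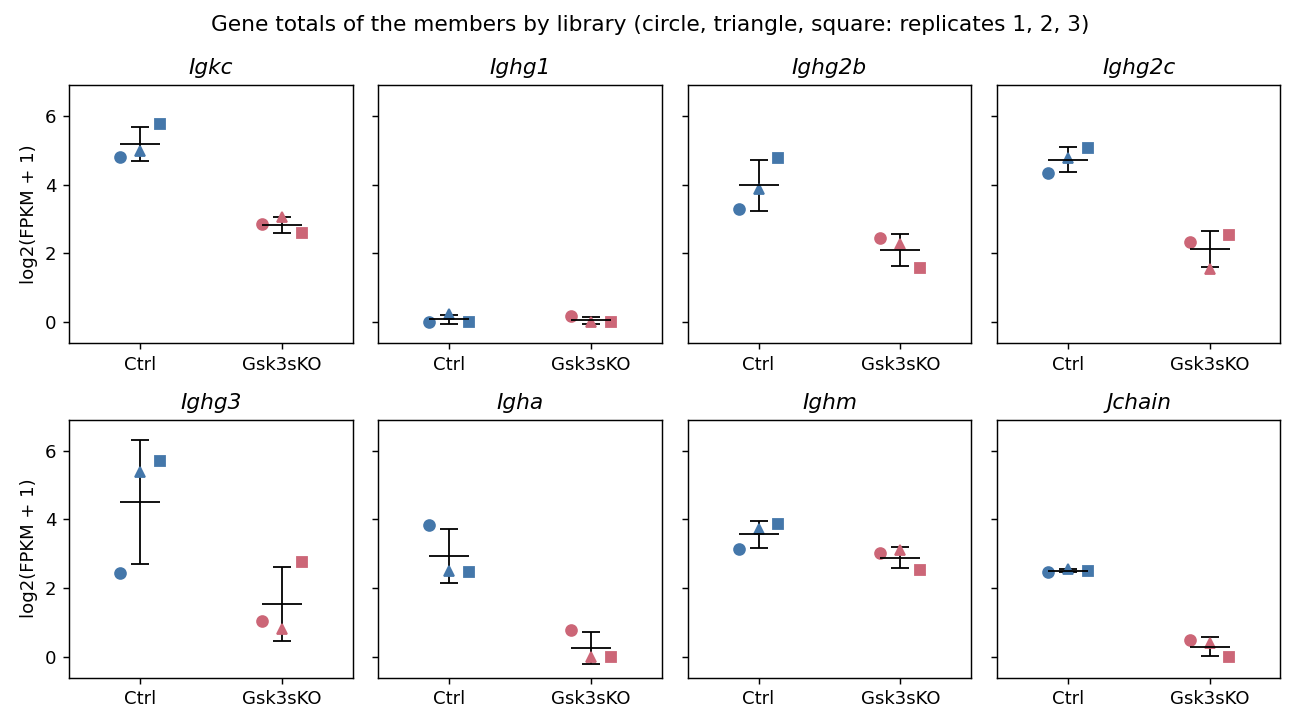
Gene totals of the 8 members, as log2(FPKM + 1), in the 3 Ctrl (blue) and 3 Gsk3sKO (red) libraries; the black line is the mean and the bar 1 SD on the log2 scale. Ighg1 sits near 0 in all libraries, Ighm shows the smallest gap among the other members, and Ighg3 shows the widest spread within Ctrl.

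Igkc encodes the constant region shared by all kappa light chains. In the GENCODE M21 annotation of GRCm38 it is a single exon on the plus strand of chromosome 6 from 70726435 to 70726966 (ENSMUSG00000076609), so its value involves no division of reads between transcripts. It stood at 27.2, 30.6 and 53.0 FPKM in the Ctrl libraries and at 6.19, 7.40 and 5.09 FPKM in Gsk3sKO. All Ctrl libraries were high and all Gsk3sKO libraries low, and the lowest Ctrl value was more than 3 times the highest Gsk3sKO value. The means were 36.9 ± 14 FPKM (SD, n = 3) and 6.22 ± 1.15 FPKM (SD, n = 3), a ratio of 5.93 and a difference of -2.34 on the log2(FPKM + 1) scale. The values correspond to about 520 to 663 fragments per Ctrl library and 81 to 136 per Gsk3sKO library. Igkc was thus well covered in both groups, and no 50-base word of its transcript occurs in another immunoglobulin gene of the annotation.

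The lambda light chains, which replace kappa in a minority of mouse antibodies, were listed at much lower values. The lambda constant regions Iglc1, Iglc2, Iglc3 and Iglc4 summed to 12.9, 1.36 and 1.37 FPKM in Ctrl and to 1.68, 0 and 0.231 FPKM in Gsk3sKO. Ctrl replicate 1 stood apart, with 8.65 FPKM of Iglc1 and 3.16 FPKM of Iglc2. Iglc1 was the only constant region outside the members to pass the filter, and its difference of -0.78 (standard error 0.84) did not pass the test (limma adjusted p = 0.900). Iglc3, below the filter, was at 1.09, 0.207 and 1.11 FPKM in Ctrl and listed at 0 in Gsk3sKO. For Iglc1, Iglc2 and Iglc4 the groups overlapped. Kappa made up 67.8% of the light chain FPKM in Ctrl replicate 1 and 95.8% and 97.5% in the other Ctrl libraries. In Gsk3sKO it made up 78.6%, 100% and 95.7%, so the kappa share overlapped between the groups.

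The heavy chain constant regions lie side by side on the minus strand of chromosome 12, with Ighm (113418558 to 113422730) nearest the variable segments and Igha (113254830 to 113260236) farthest from them, and Ighg3 (113356224 to 113361232), Ighg1 (113325240 to 113330523), Ighg2b (113302965 to 113307933) and Ighg2c (113285325 to 113288932) in between. Class switching joins the same variable exon to one of the downstream constant regions. Each gene can be spliced into a membrane form, the antigen receptor of B cells, or end earlier as a secreted form, the antibody itself. The last 72 coding bases of the secreted transcripts, without the stop codon, are shown because they separate the secreted form from the membrane form and the J chain-binding classes from the others. Capitals mark the coding bases that the membrane form lacks.
Ighm: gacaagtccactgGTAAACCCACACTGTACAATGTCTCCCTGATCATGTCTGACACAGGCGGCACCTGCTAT
Igha: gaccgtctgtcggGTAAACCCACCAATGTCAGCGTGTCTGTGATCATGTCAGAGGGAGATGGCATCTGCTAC
Ighg1: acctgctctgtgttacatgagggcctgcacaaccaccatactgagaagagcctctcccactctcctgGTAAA
Ighg2b: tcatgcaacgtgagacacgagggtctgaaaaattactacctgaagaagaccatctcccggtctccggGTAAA
Ighg2c: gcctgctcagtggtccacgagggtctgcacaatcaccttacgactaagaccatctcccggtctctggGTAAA
Ighg3: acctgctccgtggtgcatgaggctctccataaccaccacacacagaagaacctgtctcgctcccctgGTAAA

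In these reference sequences the secreted form of Ighm and of Igha ends in a tail of 59 coding bases of its own, whose next-to-last codon, TGC, encodes cysteine, the residue through which IgM and IgA are linked to the J chain. The secreted forms of Ighg1, Ighg2b, Ighg2c and Ighg3 add only 5 coding bases and have no such tail. The printed stretches lie on chromosome 12 of GRCm38 from 113420870 to 113420941 for Ighm, from 113258771 to 113258842 for Igha, from 113328979 to 113329050 for Ighg1, from 113306392 to 113306463 for Ighg2b, from 113287392 to 113287463 for Ighg2c and from 113359668 to 113359739 for Ighg3. They were read from the GENCODE M21 transcripts.

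Ighg2c, the constant region of an IgG subclass found in C57BL/6 mice, was listed at 19.3, 26.4 and 32.4 FPKM in the Ctrl libraries and at 4.03, 1.93 and 4.82 FPKM in Gsk3sKO. The groups were far apart, with means of 26.0 ± 6.55 FPKM (SD, n = 3) and 3.59 ± 1.49 FPKM (SD, n = 3), a ratio of 7.24. Its log2 difference was -2.59. Ighg2b, another IgG subclass, stood at 8.84, 13.7 and 26.3 FPKM in the Ctrl libraries and at 4.49, 3.86 and 2 FPKM in Gsk3sKO. These groups also did not overlap, and Ctrl replicate 3 was nearly 3 times Ctrl replicate 1. The Ighg2b means were 16.3 ± 9.04 FPKM (SD, n = 3) and 3.45 ± 1.29 FPKM (SD, n = 3), a log2 difference of -1.87. The main transcripts of these 2 genes share 5.26% and 5.27% of their 50-base words with each other, so a small part of their reads could be assigned to either.

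Ighg3, an IgG subclass raised mainly against carbohydrate antigens, had the widest spread within a group. It was listed at 4.44, 41.0 and 50.6 FPKM in the Ctrl libraries and at 1.05, 0.771 and 5.79 FPKM in Gsk3sKO. Ctrl replicate 1 was low, below Gsk3sKO replicate 3, so the groups overlapped. The means were 32.0 ± 24.4 FPKM (SD, n = 3) and 2.53 ± 2.82 FPKM (SD, n = 3), with a log2 difference of -2.97, or -4.00 without Ctrl replicate 1.

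Ighg1 was nearly missing from all libraries. Its gene total was 0, 0.183 and 0 FPKM in Ctrl and 0.127, 0 and 0 FPKM in Gsk3sKO, or at most about 14 fragments, and all of it was assigned to the membrane transcript. The secreted Ighg1 transcript stood at 0 in all 6 libraries, in the same libraries in which the secreted transcripts of the other IgG subclasses reached 50.6 FPKM. The values of Ighg1 thus gave no detectable difference at this depth.

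Igha, the constant region of the mucosal class IgA, was listed at 13.2, 4.67 and 4.52 FPKM in the Ctrl libraries and at 0.724, 0 and 0 FPKM in Gsk3sKO. Ctrl replicate 1 was the highest, the reverse of the order seen for Ighg3. The Ctrl values correspond to about 125 to 654 fragments and the Gsk3sKO values to at most 33, while 3 fragments would have given 0.095 and 0.091 FPKM in the 2 libraries listed at 0. The means were 7.46 ± 4.96 FPKM (SD, n = 3) and 0.241 ± 0.418 FPKM (SD, n = 3), and the log2 difference of -2.67 rests on the pseudocount, being -5.04 with a pseudocount of 0.1.

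Ighm, the constant region of IgM, the first class that a B cell makes, differed least among the members that passed the filter. It stood at 7.73, 12.3 and 13.5 FPKM in the Ctrl libraries and at 7.20, 7.62 and 4.77 FPKM in Gsk3sKO. The groups barely separated, since Gsk3sKO replicate 2 lay just below Ctrl replicate 1. The means were 11.1 ± 3.02 FPKM (SD, n = 3) and 6.53 ± 1.54 FPKM (SD, n = 3), a ratio of 1.71 and a log2 difference of -0.68. For the secreted Ighm transcript alone the groups overlapped, at 6.01, 9.44 and 13.3 FPKM in Ctrl and 7.20, 7.62 and 3.98 FPKM in Gsk3sKO.

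Jchain encodes the joining chain, a small protein that links IgM and IgA units into polymers and is made by antibody-secreting cells whatever their class. The gene (ENSMUSG00000067149) lies on the minus strand of chromosome 5 from 88519809 to 88527891. Its total was 4.51, 4.94 and 4.69 FPKM in Ctrl and 0.418, 0.328 and 0 FPKM in Gsk3sKO. The Ctrl libraries were close to each other, with a mean of 4.72 ± 0.216 FPKM (SD, n = 3), and all Gsk3sKO libraries were low, with a mean of 0.249 ± 0.220 FPKM (SD, n = 3). Of its 2 listed transcripts the protein coding one, ENSMUST00000087033, was at 4.15, 4.84 and 4.58 FPKM in the Ctrl libraries and listed at 0 in all 3 Gsk3sKO libraries, where 3 fragments would have given 0.052, 0.075 and 0.072 FPKM. The other, ENSMUST00000164073, keeps an intron and was at 0.367, 0.102 and 0.112 FPKM in the Ctrl libraries and at 0.418, 0.328 and 0 FPKM in Gsk3sKO. What little Jchain signal Gsk3sKO held was therefore assigned in full to the intron-retaining transcript, and this division of reads is an estimate by the authors' software. The Jchain total stood for about 156 to 299 fragments in Ctrl and at most 40 in Gsk3sKO.

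The antibody mRNA was mostly of the secreted form in both groups. Over the 5 heavy chain genes with both forms in the table (all but Ighg3), the secreted form made up 96.5%, 94.6% and 99% of the FPKM in Ctrl and 99.2%, 85.6% and 93.2% in Gsk3sKO. The shares overlapped. The low value of Gsk3sKO replicate 2 came from Ighg2c, whose 1.93 FPKM in that library were all assigned to the membrane transcript, which was listed at 0 in the other 5 libraries. The membrane form of Ighm was the main membrane signal in Ctrl replicates 1 and 2, with 1.72, 2.82 and 0.163 FPKM over the Ctrl libraries and 0, 0 and 0.793 FPKM over the Gsk3sKO libraries.

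**Figure D2:**
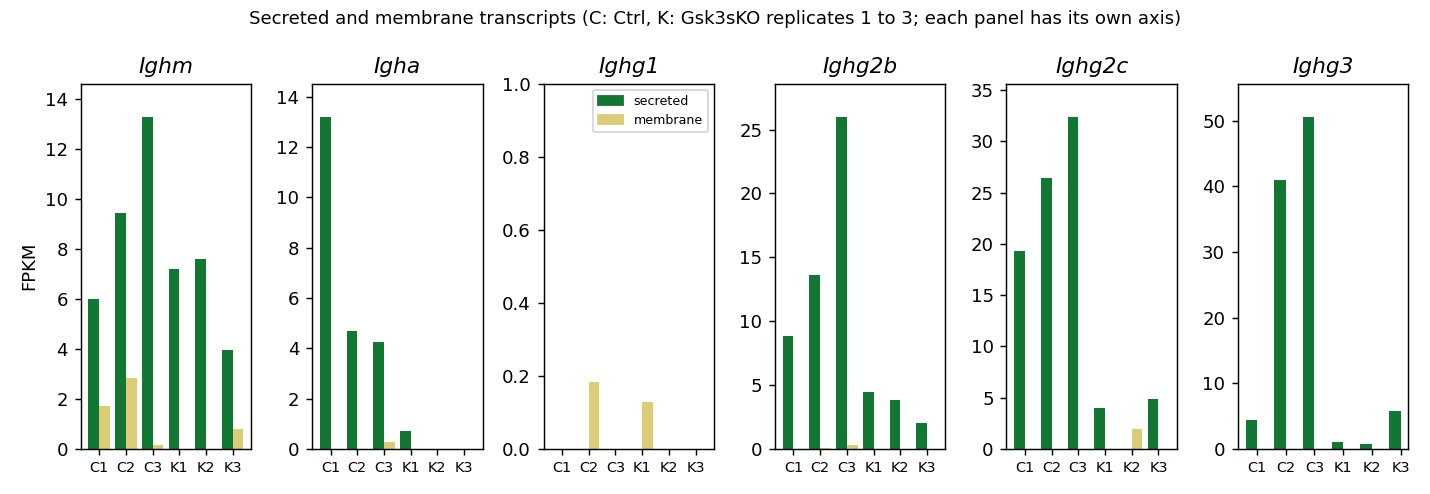
FPKM of the secreted (green) and membrane (yellow) transcripts of each heavy chain gene in each library, with a separate linear axis from 0 per panel; Ighg3 has only its secreted transcript in the table. The secreted form carries most of the signal except for Ighg2c in Gsk3sKO 2 and for Ighg1, whose panel stops at 1 FPKM and shows membrane transcript only.

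The make-up of the heavy chain signal differed between the libraries. All heavy chain constant regions, Ighd and Ighe included, summed to 53.5, 98.3 and 127 FPKM in Ctrl and to 17.7, 14.2 and 17.4 FPKM in Gsk3sKO. The IgM share of this sum was 14.4%, 12.5% and 10.6% in Ctrl and 40.7%, 53.7% and 27.5% in Gsk3sKO, so that each Gsk3sKO library lay above each Ctrl library. The combined IgG share was 60.9%, 82.7% and 85.7% in Ctrl and 54.7%, 46.3% and 72.5% in Gsk3sKO, with overlap. These shares come from the values the genes were chosen on and were not tested. Ctrl replicate 1 differed from the other Ctrl libraries by an IgA share of 24.7%, against 4.75% and 3.54%, and by an Ighg3 share of 8.30%, against 41.7% and 39.7%. Light chain FPKM per heavy chain FPKM was 0.749, 0.325 and 0.427 in Ctrl and 0.444, 0.521 and 0.306 in Gsk3sKO, so both chains were lower together in Gsk3sKO and their ratio overlapped. Ighd, the IgD constant region of naive B cells, reached at most 0.201 FPKM, and Ighe, that of IgE, stood at 0 in all libraries.

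**Figure D3:**
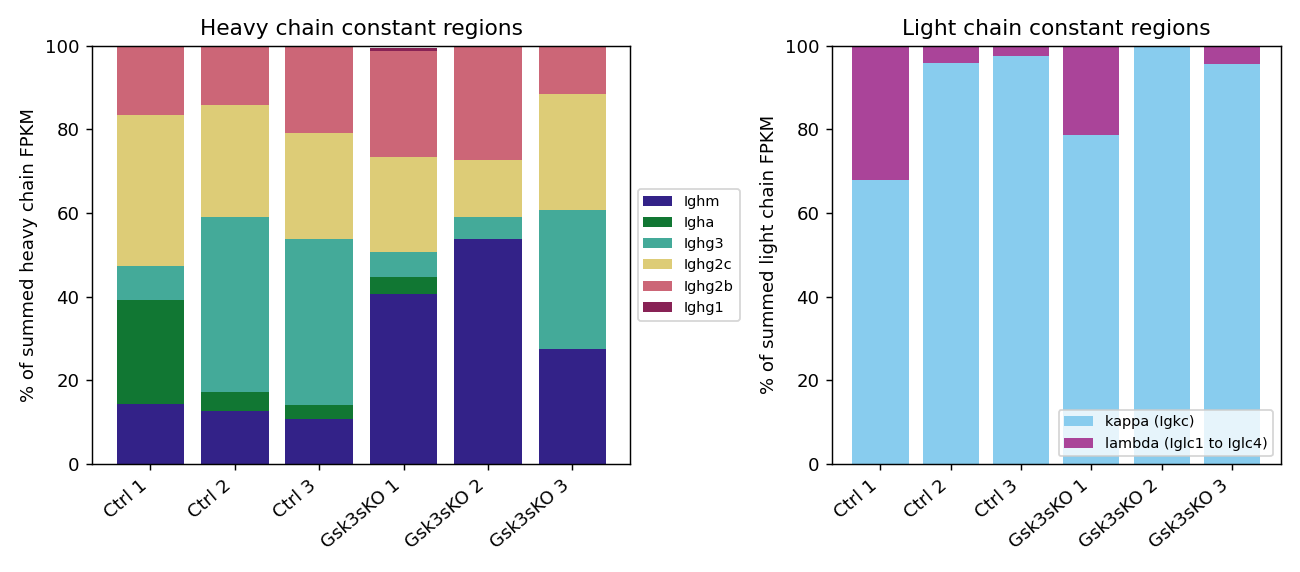
Left, share of each class in the summed FPKM of the heavy chain constant regions; right, kappa and lambda shares of the light chain constant regions, for each library. Ighm takes 10.6% to 14.4% of the heavy chain signal in Ctrl and 27.5% to 53.7% in Gsk3sKO, while Ctrl 1 holds the largest Igha and lambda shares.

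The variable segments sit on the same mRNAs as the constant regions and so are no independent measure of the difference between the groups. They show which segments were given signal in a library, and the joins between segments were not examined. Of the 348 Ighv, Igkv and Iglv segments listed, 70 were above 0 in at least 1 library, 51 of them in Ctrl only, 5 in Gsk3sKO only and 14 in both. Their sum was 52.6, 94.0 and 117 FPKM in Ctrl and 13.5, 1.74 and 23.4 FPKM in Gsk3sKO. In Ctrl 13, 38 and 41 segments were above 0, and in Gsk3sKO 13, 2 and 7. Detection also differed over all transcripts, with 42649, 55841 and 48789 above 0 in the Ctrl libraries and 47601, 40787 and 41091 in Gsk3sKO. The share of all genes above 0 in only 1 group was not computed, so nothing is read from these segment counts. Heavy chain segments made up 23.6, 52.1 and 81.8 FPKM in Ctrl and 10, 0 and 13.5 FPKM in Gsk3sKO, and kappa segments 27.2, 41.5 and 34.6 FPKM in Ctrl and 2.62, 1.74 and 9.90 FPKM in Gsk3sKO.

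The libraries held different sets of segments. Of the 38 segments with at least 1 FPKM in some library 24 reached that level in 1 library only, 8 in 2 libraries and 6 in 3 or more. Igkv5-48 was at 14.1 FPKM in Ctrl replicate 1, its leading segment, and listed at 0 in all other libraries. Igkv5-39 led in Ctrl replicates 2 and 3 and in Gsk3sKO replicates 2 and 3. It was listed at 3.94, 33.8 and 23.6 FPKM in the Ctrl libraries and at 1.72, 0.963 and 7.57 FPKM in Gsk3sKO, and Ighv1-26 at 0, 14.8 and 16.0 FPKM in Ctrl and 0, 0 and 7.22 FPKM in Gsk3sKO. Both segments were low in Ctrl replicate 1 and highest within Gsk3sKO in replicate 3, as Ighg3 was. Across the 6 libraries the log2(FPKM + 1) values of Igkv5-39 and Ighg3 correlated with Pearson r = 0.98, and with r = 0.97 after each group's mean was subtracted, a pair noticed in the data and given as a description. Ighv5-6 had the opposite order in Ctrl, at 10.5, 0.976 and 3.65 FPKM. Many Ighv1 segments are near copies of each other, so a segment name there is less certain. For Ighv1-26, 49.0% of its 50-base words occur in other segments, and for Ighv1-72, listed at 0, 2.37 and 12.9 FPKM in the Ctrl libraries and at 0 in Gsk3sKO, 92.5% do, against 35.4% for Ighv1-85 and 0% for Igkv5-39 and Igkv5-48.

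Of the 348 segments 12 passed the filter, and all 12 had the higher mean in Ctrl, the group through which they passed, so their counts give no support to a difference. Among all tested gene totals 5.20% were called lower and 1.36% higher in Gsk3sKO at an unadjusted p under 0.05 in limma. Of the 12 segments 4 were lower by that rule, namely Igkv5-39, Ighv5-6, Ighv1-82 and Ighv1-85, and none was higher. Their Benjamini-Hochberg adjusted p lay between 0.197 for Ighv1-85 and 0.75 for Ighv1-82. Ighv1-85 was the 1 tested segment without overlap, at 3.25, 2.37 and 3.08 FPKM in the Ctrl libraries and listed at 0 in all 3 Gsk3sKO libraries. Single libraries decided this count, which was 8 without Ctrl replicate 1, 2 without Ctrl replicate 2 or without Gsk3sKO replicate 2, and 1 without Ctrl replicate 3.

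**Figure D4:**
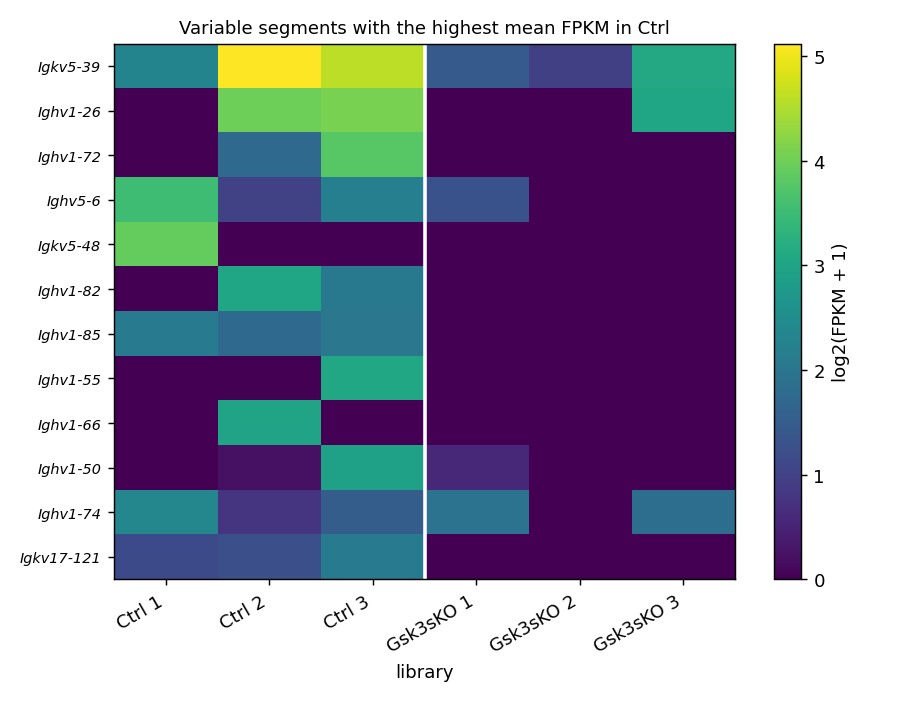
Log2(FPKM + 1) of the 12 variable segments with the highest mean in Ctrl (rows) in the 6 libraries (columns), with a white line between Ctrl and Gsk3sKO. Igkv5-48 is bright in Ctrl 1 alone, Igkv5-39 and Ighv1-26 are brightest in Ctrl 2 and Ctrl 3 and next in Gsk3sKO 3, and Ighv1-85 is present in all Ctrl libraries and dark in Gsk3sKO.

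Within a group the members did not all vary together. After each group's mean was subtracted, Igkc went with Ighg2b (Pearson r = 0.92) and Ighm (r = 0.78) over the 6 libraries but not with Ighg2c (r = 0.13), and Ighg3 went against Igha (r = -0.85). These correlations are descriptions over libraries that share only the assay. Outside the members, the gene totals most like Igkc over all 6 libraries were Gm24495 (r = 0.992), the chromatin regulator Setd5 (r = 0.990), the inhibitory synapse adhesion gene Igsf9b (r = 0.985), the class Ib histocompatibility gene H2-Q4 (r = 0.981) and the circadian repressor Cry2 (r = 0.975), the highest of 12867 compared. All 5 were lower in each Gsk3sKO library than in each Ctrl library, which follows from choosing them for their likeness to Igkc. Their differences were between 0.24 and 1.65 on the log2(FPKM + 1) scale in size, against 2.34 for Igkc. With the group means subtracted the most similar were Gm14150 (r = 0.998), the oligosaccharyltransferase subunit Stt3a (r = 0.997), the RNA helicase Ddx50 (r = 0.995), Fam45a (r = 0.993) and Cntnap5b (r = 0.993), none of which is on the first list. These too were picked as the highest of 12867 over only 6 libraries, so nothing is read from them.

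The genes that define antibody-secreting cells and B cells were looked for in the same libraries. Of the plasma cell list, 14 of 15 names were found, and 3 of them, Mzb1, Pou2af1 and Tnfrsf17, were listed at 0 in all 6 libraries. Sdc1, the plasma cell surface marker, reached at most 0.238 FPKM, Prdm1 at most 0.221 and Irf4 at most 0.153 FPKM. Xbp1 and Txndc5, which many secretory cells and neurons use, were the 2 that passed the filter and carried almost all of the list's sum, which was 34.3 to 42.2 FPKM in Ctrl and 26.0 to 28.1 FPKM in Gsk3sKO. Xbp1, the transcription factor of the unfolded protein response, was at 24.1, 16.2 and 15.7 FPKM in Ctrl and 12, 11.9 and 12.3 FPKM in Gsk3sKO (log2 difference -0.56, standard error 0.20, limma adjusted p = 0.688) and was called lower at an unadjusted p under 0.05. That call went to 5.20% of all tested gene totals. Without Ctrl replicate 1 Xbp1 was no longer called, with a log2 difference of -0.37. Txndc5, a protein disulfide isomerase, had a log2 difference of -0.20 (standard error 0.15, limma adjusted p = 0.844). Fkbp11 was at 0, 0.394 and 1.05 FPKM in the Ctrl libraries and listed at 0 in Gsk3sKO, and Fam46c lay between 0.085 and 0.589 FPKM. Tnfrsf13b, at 0.43, 0 and 0.525 FPKM in Ctrl, and Slamf7, at 0.205, 0 and 0.177 FPKM, were also listed at 0 in Gsk3sKO. Derl3 went the other way, at 0, 0 and 0.0319 FPKM in Ctrl and 0.506, 0 and 0 FPKM in Gsk3sKO. Eaf2 reached at most 0.181 FPKM. The median difference of the 2 tested genes was -0.38, against -0.06 for all gene totals.

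The 22 B cell genes had 23 rows, of which 11 were at 0 throughout. Ms4a1 and Cd79b were listed at 0 in all libraries and Cd79a reached 0.129 FPKM in 1 library. The list summed to 4.10 to 9.31 FPKM in Ctrl and 3.37 to 5.96 FPKM in Gsk3sKO. Only Blnk and Ebf1, which microglia and vessel cells also express, passed the filter, and neither passed the test (Blnk log2 difference -0.56, standard error 0.25, limma adjusted p = 0.764), though Blnk was called at an unadjusted p under 0.05 without Ctrl replicate 1. Bank1 and Cd72 reached 0.595 and 0.659 FPKM. The median difference of the 2 tested genes was -0.20. Zeros were common in the data, with between 17880 and 22692 of the 47729 gene totals above 0 in a library. The 8 housekeeping genes checked were above 0 in all 6 libraries, at 1.92 FPKM or more, which says nothing about scarce genes. A gene listed at 0 may lie below detection.

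**Figure D5:**
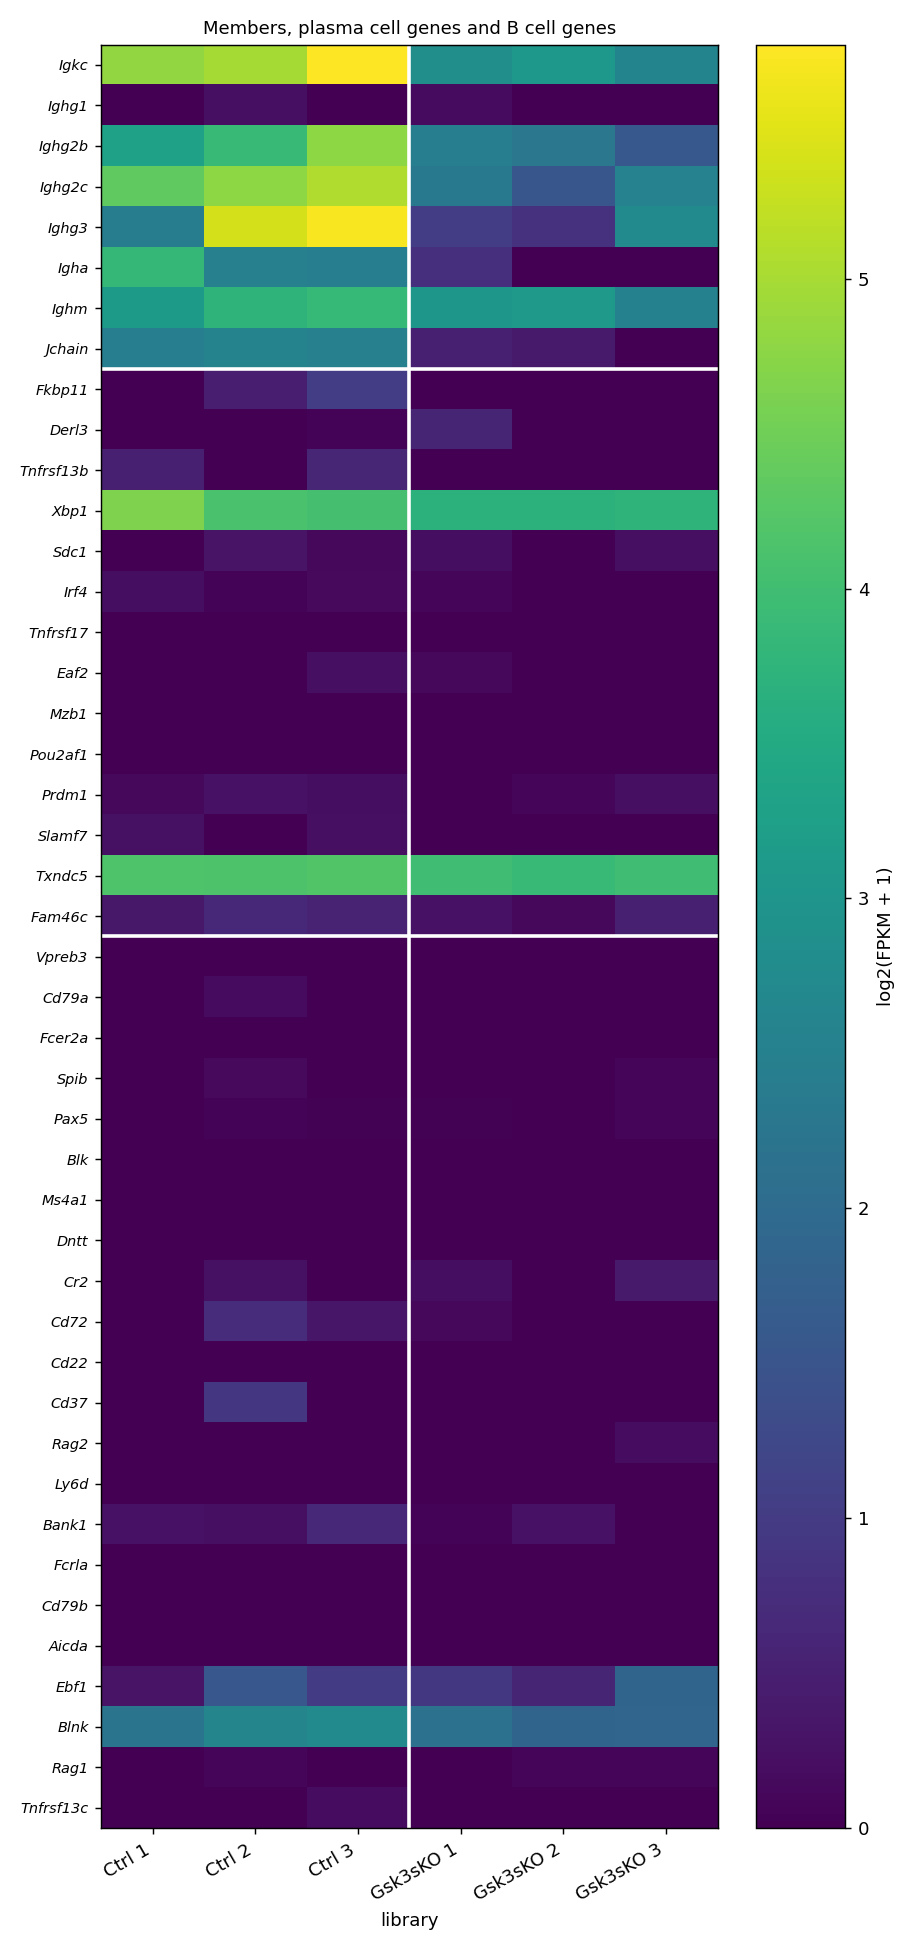
Log2(FPKM + 1) of the 8 members (top), the plasma cell genes (middle) and the B cell genes (bottom) in the 6 libraries, with white lines between blocks and between groups. Below the members, Xbp1, Txndc5, Blnk and Ebf1 have the highest means, and most other rows are at or near 0.

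Markers of other cells in the tissue were measured beside the members. Of the 23 myeloid genes 7 passed the filter and 2 were lower in Gsk3sKO at an unadjusted p under 0.05 in limma, the complement genes C1qa and C1qb, and none was higher. Among all tested gene totals 5.20% were called lower and 1.36% higher. C1qb was at 9.12, 8.17 and 8.34 FPKM in the Ctrl libraries and at 4, 4.57 and 6.67 FPKM in Gsk3sKO (log2 difference -0.67, standard error 0.22, limma adjusted p = 0.688) and was not called without Gsk3sKO replicate 1. C1qa had a log2 difference of -0.82 (standard error 0.29, limma adjusted p = 0.688) and was not called without Ctrl replicate 3 or without Gsk3sKO replicate 2. C1qc, which was not called, had one of -0.61 (limma adjusted p = 0.755), and it was called lower without Ctrl replicate 3, without Gsk3sKO replicate 2 and with a pseudocount of 0.1. The microglial receptor P2ry12 differed in the other direction, by 0.72 (limma adjusted p = 0.825), and was called higher without Ctrl replicate 1, with a log2 difference of 1.31 (limma adjusted p = 0.749). The remaining tested genes, Aif1, Csf1r and Cx3cr1, had log2 differences of -0.89, -0.17 and -0.21 and were not called with all libraries. The median of the 7 tested genes was -0.61. The list summed to 29.1 to 39.9 FPKM in Ctrl and 19.5 to 26.0 FPKM in Gsk3sKO, with no overlap. Of all tested gene totals, taken singly, 8.30% separated the groups in that way. The part of myeloid cells in the difference of the members was not tested. The neutrophil genes S100a8, S100a9 and Ngp were listed at 0 throughout.

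Red cell genes were present in both groups, and 0 of the 4 tested were called in limma. Hba-a2, an alpha globin, was at 27.5, 70.5 and 47.1 FPKM in the Ctrl libraries and at 41.8, 27.1 and 36.1 FPKM in Gsk3sKO (log2 difference -0.38, limma adjusted p = 0.865). Hba-a1, Hbb-bs and Hbb-bt had log2 differences of -0.26, -0.13 and 0.03. The list summed to 56.6 to 152 FPKM in Ctrl and 66.8 to 102 FPKM in Gsk3sKO, and Ctrl replicate 1 held the least. Without that library all 4 were lower in Gsk3sKO at an unadjusted p under 0.05, with Hba-a2 at -0.72 (limma adjusted p = 0.891). In that fit 549 of all 12878 gene totals tested were called lower. The 4 are all globin genes, so they are not 4 separate measures. The median of the 4 with all libraries was -0.19. Ctrl replicate 1 was also the lowest Ctrl library for the member sum, at 85.2 FPKM, and the part of red cells in the difference of the members was not tested.

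Of the 22 genes of vessels, meninges and choroid plexus 11 were tested and 0 were called in limma, and the list overlapped between the groups, at 28.3 to 82.6 FPKM in Ctrl and 34.7 to 77.5 FPKM in Gsk3sKO. Its most abundant members, Slco1a4, Flt1, Cldn5 and Igfbp2, had log2 differences of -0.29, 0.23, -0.31 and -0.32, and the median of the 11 was -0.01. Without Gsk3sKO replicate 3, 1 of them was called, the endothelial gene Vwf. Of the 15 T and NK cell genes 2 were tested, Trbc2 and Lck, with log2 differences of -0.10 and 0.23, and 0 were called, with sums of 4.50 to 7.19 FPKM in Ctrl and 2.53 to 9.73 FPKM in Gsk3sKO. Cd4 and Trbc1, the next most abundant, reached 1.55 and 2.24 FPKM, and the median of the tested genes was 0.07.

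The receptors that bind or carry antibody were low. Of 13 genes 4 passed the filter, and in limma 0 of them were called. Trim21, the cytosolic antibody receptor, was at 1.55, 1.40 and 2.24 FPKM in Ctrl and 0.66, 0 and 1.06 FPKM in Gsk3sKO (log2 difference -0.84, standard error 0.37, limma adjusted p = 0.755) and was called at an unadjusted p under 0.05 only without Gsk3sKO replicate 3. Fcer1g, the shared signalling chain of Fc receptors, Fcgr3, an IgG receptor of myeloid cells, and Fcgrt, which carries IgG across cells, had log2 differences of -0.38, -0.54 and 0.21. Pigr, which carries J chain-linked IgA and IgM across epithelia, reached at most 0.322 FPKM. The median of the 4 tested genes was -0.46.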

How the data were processed

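RNA from RiboTag immunoprecipitates was sequenced in 6 libraries after a stranded total RNA kit. The authors deposited 1 FPKM value per transcript in each library. The submitters' processing notes name StringTie 1.3.4d, HISAT2 2.1.0, SAMtools 1.9 and the build GRCm38, while settings and strand use were not given in the sources used here. StringTie-type FPKM divides reads between overlapping transcripts by estimate. The authors also deposited a fold ratio, a p-value and a q-value of their own comparison for each transcript, which were not used.

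FPKM were summed by gene ID to gene totals. Groups were compared with limma 3.58.1 in R 4.3.3 (trend, 2-sided, Benjamini-Hochberg) on log2(FPKM + 1) without covariates, for the 12874 gene totals with a mean FPKM of at least 1, which understates differences of low genes. The fit was tested on simulated data. Members and lists were chosen with earlier results of these data known. 1 gene of the B cell list is not reported here. By a written rule, of each list the 4 most abundant genes and those with p under 0.05 were to be named, with the 5 leading variable segments and the 5 gene totals most like Igkc. Further segments, further markers and genes near the threshold were named after their values were seen. Depth was approximated from how low values are spaced for genes with 1 transcript over 800 bases, with 11.7% to 25.1% of low values within 0.01 of a whole fragment. Intervals are not given because the file holds no counts. Secreted and membrane forms were assigned from GENCODE M21 exons, and 114237 of 115220 transcripts matched that annotation. No exon of a member overlaps an exon of another annotated gene. Python 3.11.15 and matplotlib 3.10.9 made tables and figures. Replicate libraries held different values, and 0 columns of libraries were left out. The alternatives were another pseudocount, other filters, median-ratio scaling, a replicate block, the most abundant transcript alone and leaving out each library.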

Additional observations from a re-analysis of the deposited data

How the results depend on the processing

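The 8 member differences were recomputed under 10 alternatives each, and 77 of these 80 values were negative. The 3 others were those of Ighg1, at most 0.06. The replicate block cannot change a difference of group means here, so its values repeat the main ones. The most abundant transcript alone also repeats them for Igkc and Ighg3, which list 1 transcript each. The signs describe the contrast the genes were chosen on and give no support to it. The median of the members lay between -2.69 (pseudocount of 0.1) and -2.14 and was between -2.33 and -2.14 with 1 library left out. Igha went to -5.04 and Jchain to -4.10 with a pseudocount of 0.1, Ighg2c to -3.10 and Jchain to -2.46 with the most abundant transcript alone. Ighg3 lay between -4.00 and -2.38 with 1 library left out.

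The count of gene totals at an unadjusted limma p under 0.05 was 844 (669 lower, 175 higher), 807 with median-ratio scaling (531 lower, 276 higher) and between 573 and 1178 with 1 library left out. The count of transcripts was 1200, 1917 without a filter, 590 at a mean FPKM of at least 5 and between 878 and 1726 with 1 library left out. The filter changes how many features are tested. Without a filter 1 of the other constant regions was called instead of 0, and 2 variable segments instead of 4. At a mean FPKM of at least 5, 1 variable segment and 1 myeloid gene were called instead of 4 and 2, since fewer were tested.

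With 1 library left out, called genes numbered between 1 and 8 for the variable segments, 0 and 1 for the plasma cell genes, 0 and 1 for the B cell genes, 0 and 4 for the red cell genes, 1 and 3 for the myeloid genes (without Ctrl replicate 1, P2ry12 among them as higher), 0 and 1 for the vessel, meninges and choroid plexus genes and 0 and 1 for the receptors. The cause was not tested.

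The replicate numbers of the groups are only shared labels: same-numbered libraries had correlations of their deviations of -0.03, -0.01 and -0.08 over gene totals. With the replicate block 821 gene totals, 1103 transcripts and 5 variable segments were called, and the counts of the other lists were as in the fit without it. The member median of -2.28 is one that the block cannot change. Depth limits the low members most, Ighg1 above all.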
